A study of Mus musculus with 6 samples.

Results

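A set of 10 genes of the response to low oxygen and of glucose breakdown was followed in mouse adrenal medulla: Hif1a, Egln3, Ddit4, Pdk1, Vegfa, Slc2a1, Bnip3, Ldha, Pgk1 and Ankrd37. All 22 probe sets whose only symbol in the platform's gene table is one of these 10 genes were taken, out of 45101 probe sets on the array. In 3 male C57/Bl6 mice the aortic arch had been narrowed by transverse aortic constriction (TAC), a model of cardiac pressure overload, and 3 others had a sham operation; tissue was taken 8 weeks later. Every Affymetrix expression array carried the amplified RNA of a single animal, pooled from its left and right medulla and dissected out of 12 µm frozen sections. Age is not given in the labels, and the labels give no measure of oxygen supply to the adrenal gland. Values are log2 intensities, differences are TAC minus sham on that scale, SD is the spread between the 3 arrays of a group, and SE is the standard error of the limma fit.

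As background, hypoxia-inducible factor (HIF) pairs an alpha subunit, such as the product of Hif1a, with the stable partner ARNT. In oxygen, prolyl hydroxylases of the Egln family mark the alpha subunit for destruction by the von Hippel-Lindau ubiquitin ligase, so the factor is controlled mostly as a protein and much less through its mRNA. When oxygen falls, HIF binds the hypoxia response element, whose core is ACGTG or GCGTG, and raises genes that bring in glucose, run glycolysis, hold pyruvate back from mitochondria, grow vessels and remove mitochondria. In chromaffin cells, the source of circulating adrenaline, this pathway is also known from pheochromocytoma, a tumour that can arise when its regulators are lost.

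The RefSeq promoter windows of the members are shown because HIF is known to act through the element named above. In the 250 bases before each annotated start (assembly GRCm38.p6), ACGTG or GCGTG was searched on both strands, so the reverse complements CACGT and CACGC count too, and overlapping matches, as in CACGTG, form 1 stretch. The promoters below are those of the member whose groups did not overlap (Pdk1), of the member with the largest difference (Ddit4), and of both enzymes of the lower part of glycolysis (Pgk1 and Ldha). Capitals mark the cores, and each sequence is read 5′ to 3′ on the strand of the gene.
Pdk1, chr2:71872974-71873223, plus strand: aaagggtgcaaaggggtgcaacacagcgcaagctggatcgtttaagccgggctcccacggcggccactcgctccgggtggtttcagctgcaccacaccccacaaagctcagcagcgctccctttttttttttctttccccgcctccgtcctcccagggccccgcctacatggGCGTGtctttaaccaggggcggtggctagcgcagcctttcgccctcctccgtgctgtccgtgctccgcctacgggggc
Ddit4, chr10:59951771-59952020, minus strand: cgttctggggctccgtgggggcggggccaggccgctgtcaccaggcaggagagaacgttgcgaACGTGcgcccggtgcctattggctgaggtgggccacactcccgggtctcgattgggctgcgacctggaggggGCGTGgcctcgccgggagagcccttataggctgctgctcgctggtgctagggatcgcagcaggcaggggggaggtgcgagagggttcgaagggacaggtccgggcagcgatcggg
Ldha, chr7:46845554-46845803, plus strand: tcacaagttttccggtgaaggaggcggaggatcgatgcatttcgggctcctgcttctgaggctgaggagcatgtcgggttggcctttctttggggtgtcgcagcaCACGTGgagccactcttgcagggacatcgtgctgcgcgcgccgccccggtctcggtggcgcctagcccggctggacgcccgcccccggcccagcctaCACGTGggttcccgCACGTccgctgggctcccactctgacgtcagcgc
Pgk1, chrX:106186850-106187099, plus strand: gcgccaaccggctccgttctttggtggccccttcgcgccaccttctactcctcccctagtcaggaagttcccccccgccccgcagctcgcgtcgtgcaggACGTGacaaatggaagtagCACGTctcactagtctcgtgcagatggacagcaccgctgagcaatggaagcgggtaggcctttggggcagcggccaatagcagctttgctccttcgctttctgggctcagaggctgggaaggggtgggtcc
Pdk1 and Ldha each have a second window that is not shown, with 0 cores for Pdk1 and 1 for Ldha. The Pdk1 window shown holds 1 core, Ddit4 2 separate cores, Pgk1 2 and Ldha 3 stretches, of which CACGTG occurs in 2. All 10 members had a core in at least 1 of their windows, or 11 of 13 windows (84.6%), where 38.6% of 32851 windows of all genes had one. For Vegfa, on the minus strand and not shown, the 2 cores lay in the downstream window (chr17:46025164-46025413). Its upstream window (chr17:46032378-46032627) had 0. The members' windows were also richer in G and C, with a median of 64% against 52.4% in all windows. A match describes these letters only and shows no binding.

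None of the members passed the test of TAC against sham. Of the 22 probe sets, 15 from 8 genes reached log2 4 on at least 3 arrays and were tested, with 0 of 15 at a limma adjusted p under 0.05, where the share over all 18188 tested probe sets was 0%. Before adjustment, 0 of 15 had a p under 0.05, against 6.94% of all tested probe sets (4.65% higher and 2.29% lower after TAC). Adjusted p-values of the 15 ran from 0.730 to 0.999. In 10 of 15 the difference was above 0, against 54.7% of all. With 1 probe set a gene, the one with the highest mean, 6 of 8 members were above 0, against 58.7% of 10181 genes taken the same way, and the members' median difference was 0.11, close to the 0.09 of those genes. The 3 arrays of one group lay apart from the 3 of the other at 1 of the 15, a Pdk1 probe set with TAC above, a pattern found at 9.01% of all tested probe sets (and at 4.01% with TAC below). The intervals were wide: the 95% interval of the difference spanned 0 at each of the 15 probe sets and ran, for example, from -2.46 to 0.36 for Ddit4 and from -1.22 to 1.24 for Hif1a, so differences of that size were not excluded by these 6 arrays.

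**Figure D1:**
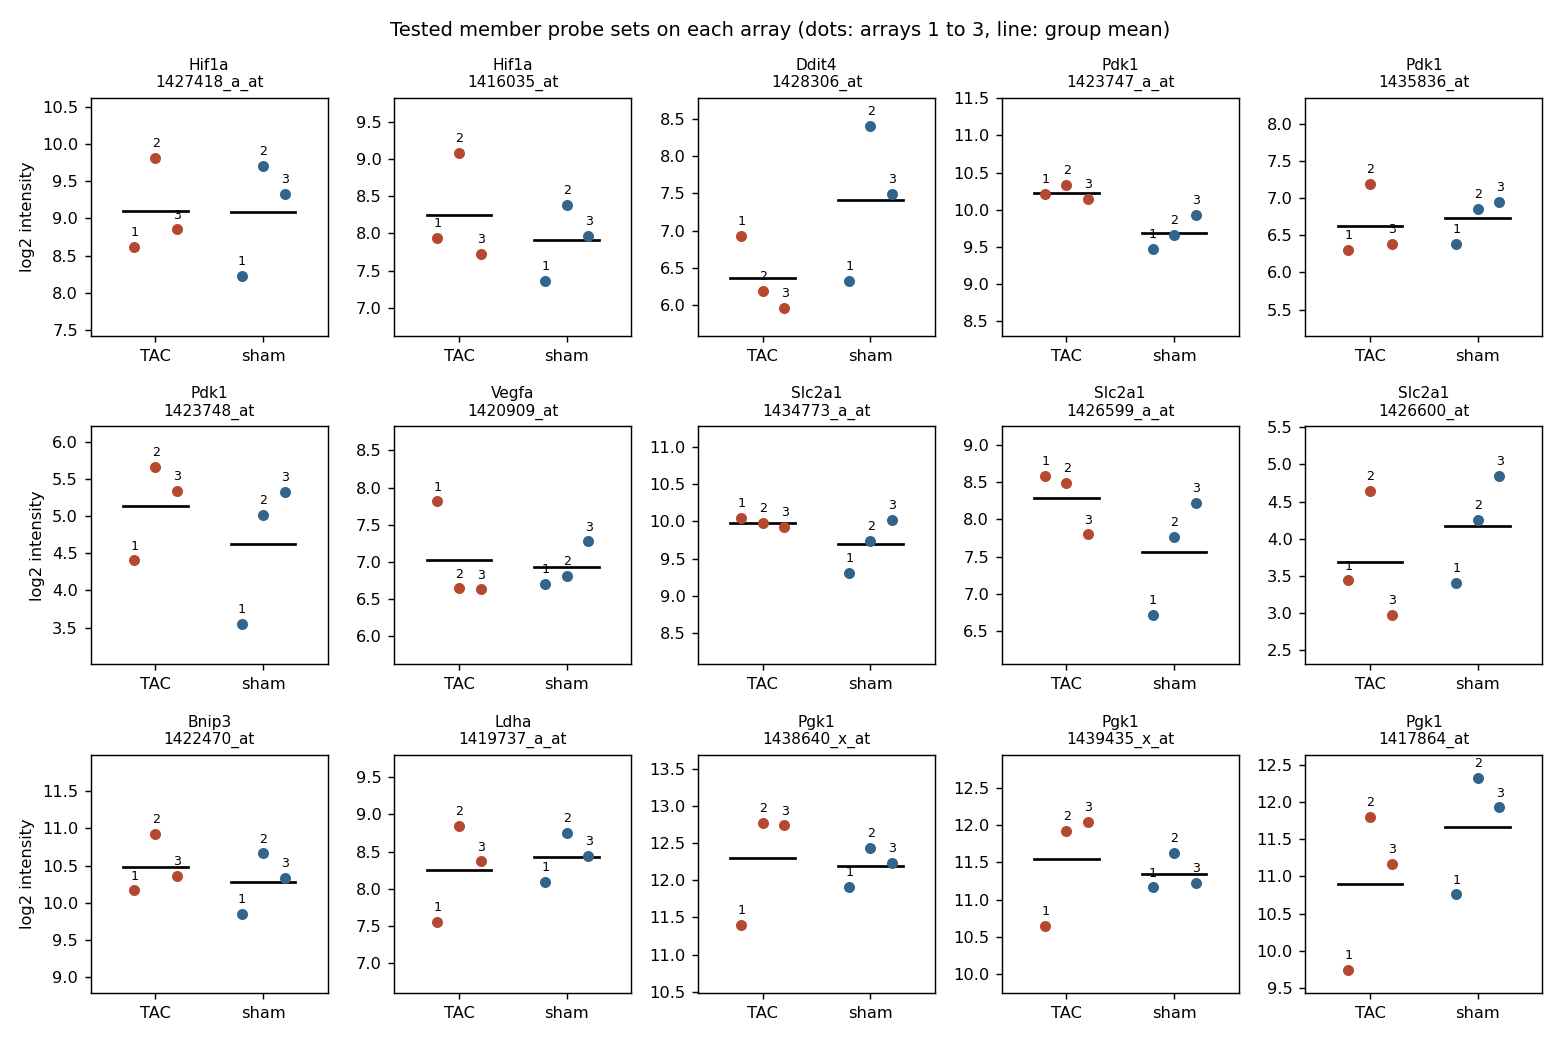
Log2 intensity (vertical axis) of the 15 tested member probe sets in 3 TAC arrays (left) and 3 sham arrays (right), with dots numbered by replicate and a line at the group mean; every panel spans the same number of log2 units. The groups lie apart only for Pdk1 1423747_a_at, with TAC at 10.15 to 10.33 and sham at 9.48 to 9.93, and sham 1 is the lowest sham dot in all 15 panels.

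Hif1a, the oxygen-regulated subunit itself, gave the same mean in both groups at its main probe set. Probe set 1427418_a_at measured 8.62, 9.81 and 8.85 in TAC 1 to 3, against 8.22, 9.70 and 9.33 in sham 1 to 3. The groups overlapped almost fully, since the second array was high in both. The means were 9.09 ± 0.63 after TAC and 9.09 ± 0.77 after sham (SD, n = 3 each), and the difference was 0.01 ± 0.50 (SE; 95% interval -1.22 to 1.24; limma adjusted p = 0.999). A second probe set, 1416035_at, read 7.94, 9.08 and 7.73 after TAC against 7.36, 8.38 and 7.97 after sham, a difference of 0.34 ± 0.46 (adjusted p = 0.980). The other 2 Hif1a probe sets lay between 2.07 and 3.07 on all 6 arrays, below the filter.

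Egln3 encodes a prolyl hydroxylase that is itself switched on by HIF. Both of its probe sets stayed below the filter on all 6 arrays, at 2.36 to 2.49 after TAC and 2.35 to 2.54 after sham. Ankrd37, an ankyrin-repeat gene known as a HIF target, also stayed below it, at 3.43, 3.46 and 3.47 after TAC and 3.31, 3.42 and 3.64 after sham. Neither gene was therefore tested, and a difference below the filter could not be read on these arrays.

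Pdk1 was the member with the clearest separation. Its product is a kinase that shuts pyruvate dehydrogenase and so keeps pyruvate out of mitochondria. Probe set 1423747_a_at measured 10.22, 10.33 and 10.15 in the TAC arrays, against 9.48, 9.66 and 9.93 in the sham arrays. Every TAC array lay above every sham array, by at least 0.215. The difference was 0.54 ± 0.23 (1.46-fold; 95% interval -0.02 to 1.10; unadjusted p = 0.0559 and adjusted p = 0.730 in limma), and 7.64% of all tested probe sets had a smaller p. The other Pdk1 probe sets did not repeat this. 1423748_at read 4.40, 5.66 and 5.34 after TAC against 3.55, 5.01 and 5.32 after sham (difference 0.51 ± 0.57), with overlapping groups. 1435836_at read 6.30, 7.19 and 6.38 after TAC against 6.39, 6.85 and 6.95 after sham (difference -0.11 ± 0.34), so its groups overlapped and its sign was the opposite. The remaining Pdk1 probe set lay between 2.84 and 3.35 on all arrays and was not tested.

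Slc2a1, which encodes the glucose transporter GLUT1, was read by 3 tested probe sets that disagreed in sign. The brightest, 1434773_a_at, measured 10.04, 9.98 and 9.92 after TAC against 9.31, 9.74 and 10.03 after sham. The TAC arrays were close together and sham 3 reached into their range. The difference was 0.29 ± 0.26 (95% interval -0.35 to 0.93; limma adjusted p = 0.954). Probe set 1426599_a_at gave the largest upward difference of any member, with 8.58, 8.49 and 7.80 after TAC against 6.72, 7.76 and 8.22 after sham (0.72 ± 0.46; adjusted p = 0.895). Its lowest array was sham 1, and without sham 1 the difference was 0.30. The third, 1426600_at, was near the filter at 3.44, 4.64 and 2.98 after TAC against 3.41, 4.25 and 4.84 after sham (-0.48 ± 0.56).

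Pgk1 makes the first ATP of glycolysis and Ldha turns pyruvate into lactate. Pgk1 probe set 1438640_x_at measured 11.40, 12.77 and 12.74 after TAC against 11.90, 12.43 and 12.23 after sham, and TAC 1 was the lowest of the 6 arrays. Its difference was 0.11 ± 0.43 (limma adjusted p = 0.997). 1439435_x_at also had TAC 1 lowest, with 10.65, 11.93 and 12.04 after TAC against 11.16, 11.63 and 11.23 after sham (0.20 ± 0.43). The x in both names marks probes that can also bind other transcripts. The third probe set, 1417864_at, has no such mark and pointed down, with 9.74, 11.80 and 11.16 after TAC against 10.76, 12.32 and 11.93 after sham (-0.77 ± 0.65; adjusted p = 0.946). Leaving out TAC 1 moved that difference to -0.19 and leaving out sham 2 to -0.44, while leaving out either TAC 2 or sham 1 gave -1.22. Ldha, at 1419737_a_at, measured 7.56, 8.84 and 8.37 after TAC against 8.10, 8.75 and 8.44 after sham. TAC 1 was again lowest and the other 5 arrays ran from 8.10 to 8.84, with a difference of -0.17 ± 0.39 (95% interval -1.13 to 0.79; adjusted p = 0.990). Without TAC 1 the Ldha difference was 0.18.

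**Figure D2:**
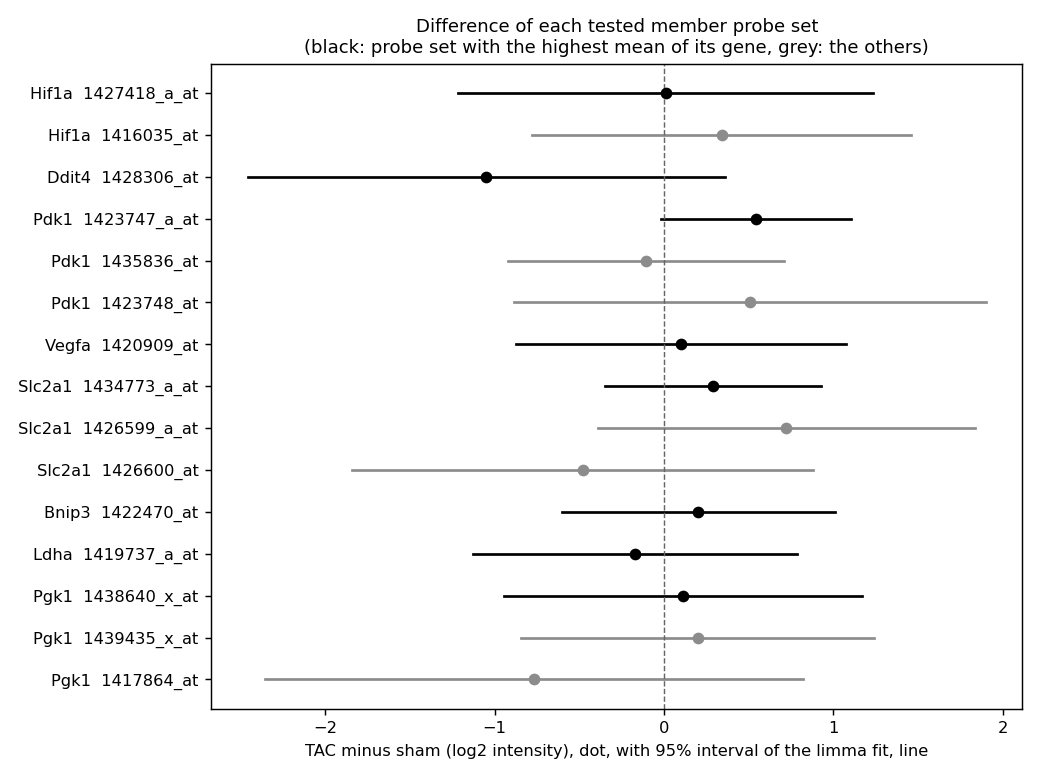
Difference of TAC minus sham in log2 intensity (horizontal axis) for the 15 tested member probe sets, with the 95% interval of the limma fit as a line; black marks the probe set with the highest mean of its gene and grey the others. All 15 intervals include 0, and Pdk1, Slc2a1 and Pgk1 each have probe sets on both sides of it.

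Ddit4 showed the largest difference of the members, and it was downward. The gene encodes REDD1, a brake on mTORC1 signalling that is raised by hypoxia and also by glucocorticoids. Its single probe set, 1428306_at, measured 6.93, 6.18 and 5.96 after TAC against 6.32, 8.41 and 7.49 after sham. Sham 2 and sham 3 were above all TAC arrays, while sham 1 was below TAC 1, so the groups overlapped. The means were 6.36 ± 0.51 after TAC and 7.41 ± 1.05 after sham (SD, n = 3 each), 2.07-fold lower after TAC (difference -1.05 ± 0.58 SE; limma unadjusted p = 0.119, adjusted p = 0.848). Single arrays decided its size: the difference was -1.59 without sham 1 (adjusted p = 0.318) and -0.55 without sham 2. Fibroblast markers moved in the same direction without passing the test: 6 of 7 tested markers had a difference below 0, against 4209 of all 10181 genes. Of the 7, 4 were lower with an unadjusted p under 0.05, against 117 of all genes, and 0 with an adjusted one. Their mean was 6.12, 7.41 and 6.92 in TAC 1 to 3, against 7.05, 8.51 and 8.51 in sham 1 to 3. Among the TAC arrays, TAC 1 had the lowest fibroblast mean but the highest Ddit4 value. Differences were also below 0 for 3 of 4 endothelial, 4 of 7 adrenal cortex and 3 of 5 macrophage markers. They were below 0 for 2 of 7 chromaffin and 1 of 4 Schwann and sustentacular cell markers. The part of these cell types in the Ddit4 values was not tested. The SE of Ddit4 was larger than that of 75.9% of all tested probe sets.

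Bnip3 marks mitochondria for removal and is a strong HIF target in many cells. Probe set 1422470_at measured 10.17, 10.92 and 10.36 after TAC against 9.85, 10.66 and 10.33 after sham, with overlapping groups (difference 0.20 ± 0.33; 95% interval -0.60 to 1.01; limma adjusted p = 0.983).

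Vegfa encodes the secreted growth factor of blood vessels. Probe set 1420909_at measured 7.81, 6.64 and 6.63 after TAC against 6.70, 6.81 and 7.28 after sham, a difference of 0.10 ± 0.40 (limma adjusted p = 0.998). TAC 1 stood above the other 5 arrays, and without it the difference was -0.29. The highest Vegfa array of each group was the array with the most signal of adrenal cortex: the mean of the 7 tested of 9 steroid-cell markers was 9.65, 8.45 and 6.77 in TAC 1 to 3, against 7.87, 6.81 and 10.94 in sham 1 to 3. The part of cortex carried along by the dissection in the Vegfa values was not tested. In dissected tissue, fewer cells of a type and less RNA per cell cannot be told apart. The 4 tested of 8 endothelial markers, cells on which VEGF acts, averaged 4.49 to 5.50 after TAC and 4.83 to 5.76 after sham. The second Vegfa probe set lay between 2.32 and 2.43 on all arrays and was not tested.

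Sham 1 was the low sham array for every tested member. All 15 tested member probe sets had their lowest sham value in sham 1, as did 62.2% of all tested probe sets. Among the TAC arrays, TAC 2 was lowest for 0 of 15 and highest for 10 of 15, where it was lowest for 24.8% and highest for 59.8% of all tested probe sets. The Gapdh control, read as its 3′ minus its 5′ probe set and larger where RNA is shortened, was 4.71, 3.67 and 3.98 in TAC 1 to 3, against 5.15, 3.08 and 2.88 in sham 1 to 3. Sham 1 thus had the largest value and the lowest median of all tested probe sets, 6.31 against 6.50 to 7.01 in TAC and 6.89 and 6.91 in the other sham arrays. The mean of the 8 members was 9.09, 9.44 and 9.12 after TAC, against 8.74, 9.52 and 9.38 after sham. With the Gapdh difference as a covariate, the median difference of the members was 0.27 and that of all genes 0.21, each at 1 probe set a gene, and 0 of the 15 probe sets passed (smallest limma adjusted p = 0.110). Under that fit the Pdk1 difference at 1423747_a_at was 0.60 (adjusted p = 0.152) and at 1423748_at 0.85 (adjusted p = 0.110). Without sham 1 the median of the members was -0.02 and that of all genes -0.07.

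**Figure D3:**
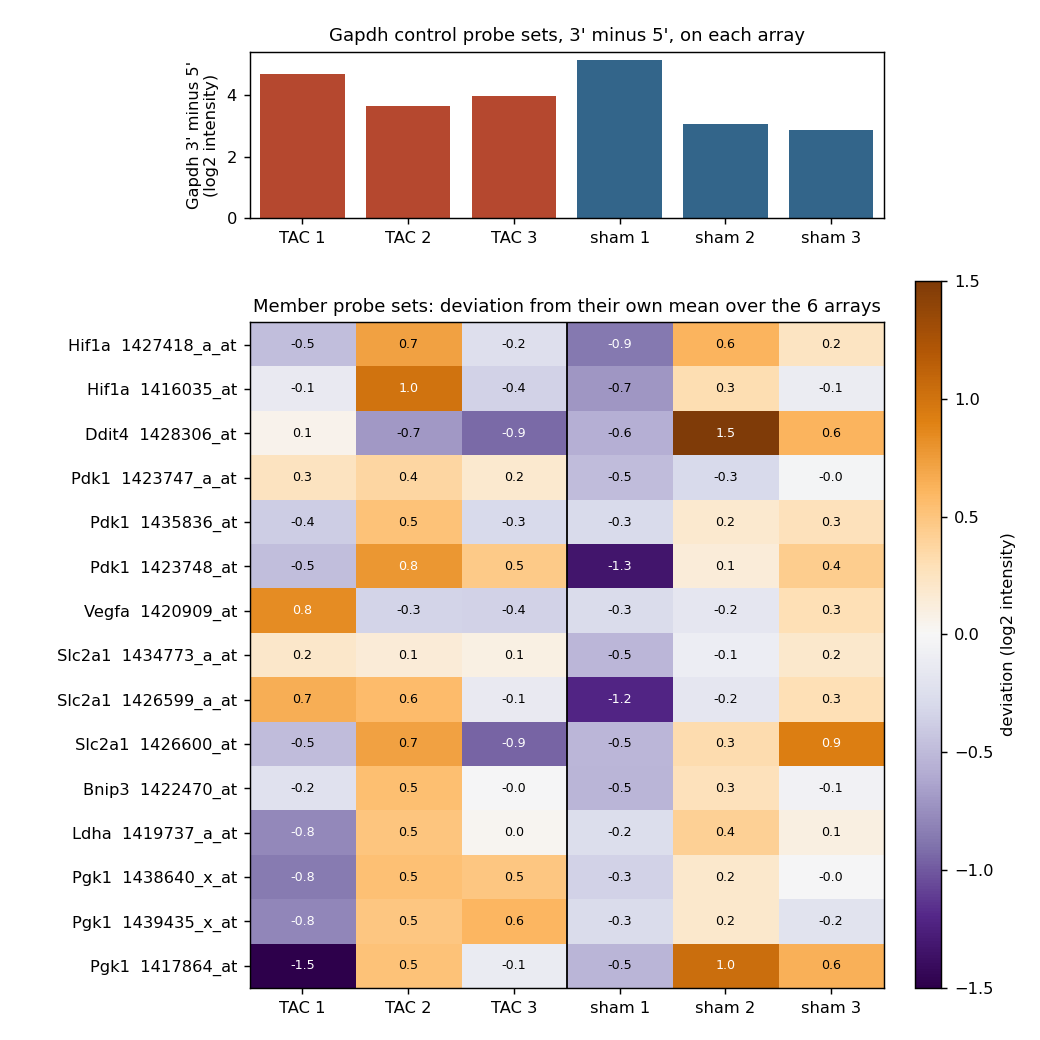
Upper part: log2 difference of the 3′ and 5′ Gapdh control probe sets on each array. Lower part: each tested member probe set as its deviation from its own mean over the 6 arrays (log2 intensity, colour and printed number), TAC arrays left and sham arrays right; sham 1 is the lowest sham column in all 15 rows, and TAC 2 is the highest TAC column in 10.

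Chromaffin markers were bright on all 6 arrays: the 7 tested of 8 markers averaged 12.76 to 13.59 after TAC and 12.93 to 13.41 after sham. Of 4 red-cell genes listed, 3 had a probe set of their own and 0 reached the filter. The 5 tested of 7 macrophage markers averaged 6.78 to 8.26 after TAC and 6.49 to 8.05 after sham, and the 4 tested of 6 Schwann and sustentacular cell markers 5.83 to 7.16 after TAC and 5.65 to 6.54 after sham.

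Other genes of the pathway were taken from 3 lists, and 0 of their tested genes passed at a limma adjusted p under 0.05. Each gene is counted once, at its brightest tested probe set, unless stated. Among HIF subunits and regulators other than the members, 15 of 16 genes were tested, 9 above 0 and 6 below, with a median of 0.18. Over all genes, 58.7% were above 0 and the median was 0.09. At 1 probe set a gene, 1 of the 15 had an unadjusted p under 0.05, against 7.29% of all genes: Elob, a subunit of the von Hippel-Lindau ligase. Elob measured 11.30, 11.14 and 11.21 after TAC against 10.50, 10.33 and 10.64 after sham (0.73 ± 0.22; adjusted p = 0.554), with every TAC array higher, and its second probe set gave 0.59 ± 0.46. Over all 25 tested probe sets of the list, 3 had an unadjusted p under 0.05, against 6.94% of all tested probe sets. The other 2, named after their values were seen, were probe sets of lower intensity than the main one of their gene. Hsp90aa1, a chaperone that binds HIF-1 alpha, measured 7.18, 7.86 and 6.69 after TAC against 8.53, 8.75 and 8.93 after sham at 1437497_a_at, with every TAC array lower (-1.497 ± 0.35; unadjusted p = 0.0051 and adjusted p = 0.465 in limma), beside -0.22 ± 0.41 at its main probe set. Siah1a, a ubiquitin ligase of prolyl hydroxylases, gave 0.95 ± 0.38 at 1449733_s_at, with every TAC array higher (adjusted p = 0.708), beside 0.34 ± 0.39 at its main one. Epas1, the HIF-2 alpha subunit, is the form best known in chromaffin cells. It measured 10.46, 11.91 and 11.49 after TAC against 10.91, 11.81 and 11.40 after sham (-0.09 ± 0.45). Arnt, the common partner, read 0.49 ± 0.37 at its main probe set and -0.46 and -0.10 at 2 others. At the first of these 2, 1419996_s_at, the TAC arrays (5.65, 5.69 and 5.67) lay below the sham arrays (5.92, 6.30 and 6.16). The prolyl hydroxylases Egln1 (0.22 ± 0.53) and Egln2 (0.49 ± 0.32) and the ligase gene Vhl (-0.18 ± 0.70, near the filter) overlapped between groups.

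No glycolysis gene passed either threshold. Of 27 genes of glycolysis and its transport and control other than the members, 21 were tested. Of these 21, 6 were above 0 and 15 below, with a median of -0.27, and 0 had an unadjusted p under 0.05. Over all genes, 58.7% were above 0, the median was 0.09 and 7.29% had such a p. The sign of this list hung on single arrays, and the median of all genes moved as well. With its members the list had a median of -0.18. It was 0.15 without TAC 1 (0.21 for all genes) and 0.004 without sham 2 (0.19 for all genes). With the Gapdh covariate it was 0.03 (0.21 for all genes). Without TAC 2 it was -0.47 (-0.04 for all genes), and without sham 1 -0.54 (-0.07 for all genes). In each of these fits the median of the list lay below that of all genes. Hk2, the hexokinase best known as a HIF target, measured 4.49, 4.68 and 4.94 after TAC against 4.23, 4.31 and 4.45 after sham (0.38 ± 0.23; limma adjusted p = 0.887), with every TAC array above every sham array but within 1 log2 unit of the filter. Separated groups were found for 2 of the 21 genes with TAC above, against 11.6% of all genes, and for 1 with TAC below, against 2.59%. The others, named after their values were seen, were the phosphofructokinase gene Pfkl with TAC above (0.75 ± 0.37; adjusted p = 0.798) and the enolase gene Eno2 with TAC below (-0.46 ± 0.27; adjusted p = 0.876). Pfkfb3, which makes the activator of phosphofructokinase, stayed below the filter. Gapdh was named alone only by array control probe sets, which were not tested. Its 3′ control read 11.73, 12.48 and 12.41 after TAC against 11.86, 12.78 and 12.61 after sham.

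Among other hypoxia targets, 20 of 32 genes other than the members were tested, 12 above 0 and 8 below, with a median of 0.07. Over all genes, 58.7% were above 0 and the median was 0.09. Adm, the gene of the vessel-widening peptide adrenomedullin, was the 1 of the 20 with an unadjusted p under 0.05, against 7.29% of all genes. It measured 12.00, 12.28 and 12.52 after TAC against 11.53, 11.75 and 11.49 after sham at 1447839_x_at (0.68 ± 0.24; limma adjusted p = 0.658). As for Pgk1, the x marks probes that can also bind other transcripts. The other Adm probe set has no such mark and read the opposite way, with 9.58, 10.43 and 10.09 after TAC against 9.46, 11.33 and 11.86 after sham (-0.85 ± 0.65). Bnip3l was not analysed here. At 1 probe set a gene, 117 of all 10181 genes were lower after TAC with an unadjusted p under 0.05, and 0 of the 56 genes of the 3 lists. Over all 94 tested probe sets of these genes there were 2, against 2.29% of all tested probe sets: the Hsp90aa1 probe set given above and 1 of Rora (1424034_at, -0.84 ± 0.34; adjusted p = 0.717; -0.56 ± 0.65 at its main probe set), named after its values were seen.

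**Figure D4:**
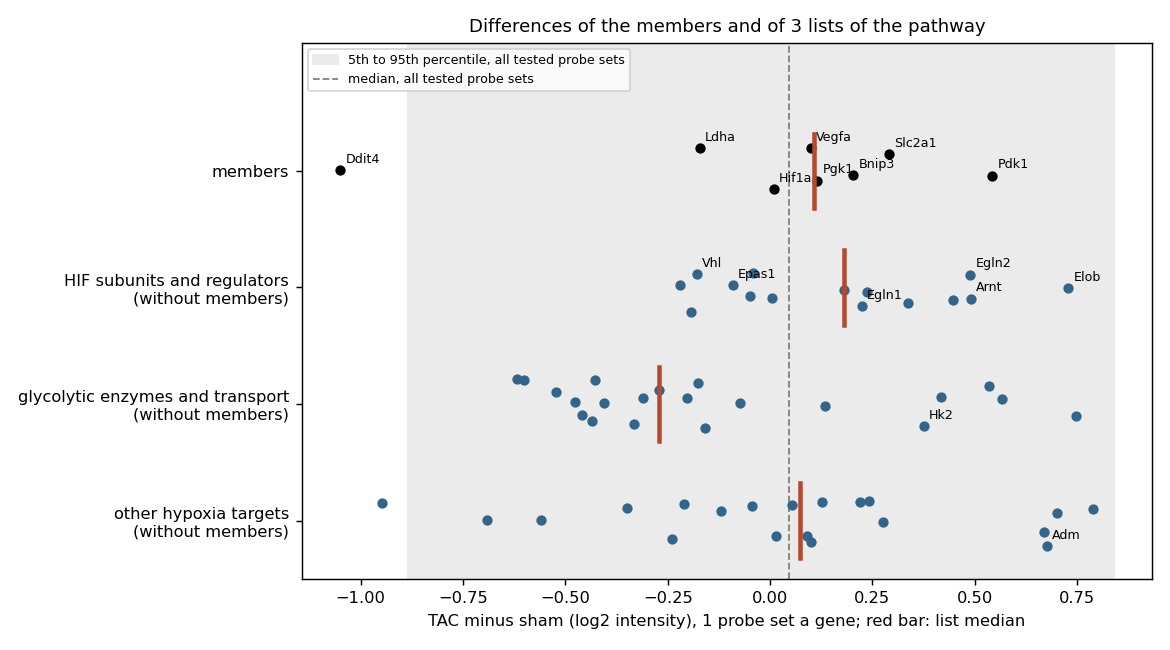
Difference of TAC minus sham in log2 intensity (horizontal axis), 1 probe set a gene, for the 8 tested members (top) and for 3 pathway lists without the members; red bars are list medians, the grey band holds the 5th to 95th percentile of all tested probe sets and the dashed line is their median. Ddit4 is the lowest member at -1.05, and the glycolysis list has its median at -0.27.

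The genes whose main probe set followed that of Hif1a most closely over the 6 arrays were Fndc3a, Zfp365 and Gpm6a (Pearson's r = 0.999, 0.998 and 0.998; Spearman's rho = 1 for each), as a description with no test. With 6 arrays such likeness is common: 559 genes had r above 0.95. Among the members, Bnip3 was nearest to Hif1a (r = 0.95, rho = 0.94), then Ldha (r = 0.82, rho = 0.94). Vegfa was the farthest (r = -0.23, rho = -0.20). All these points share the same arrays and their RNA quality.

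**Figure D5:**
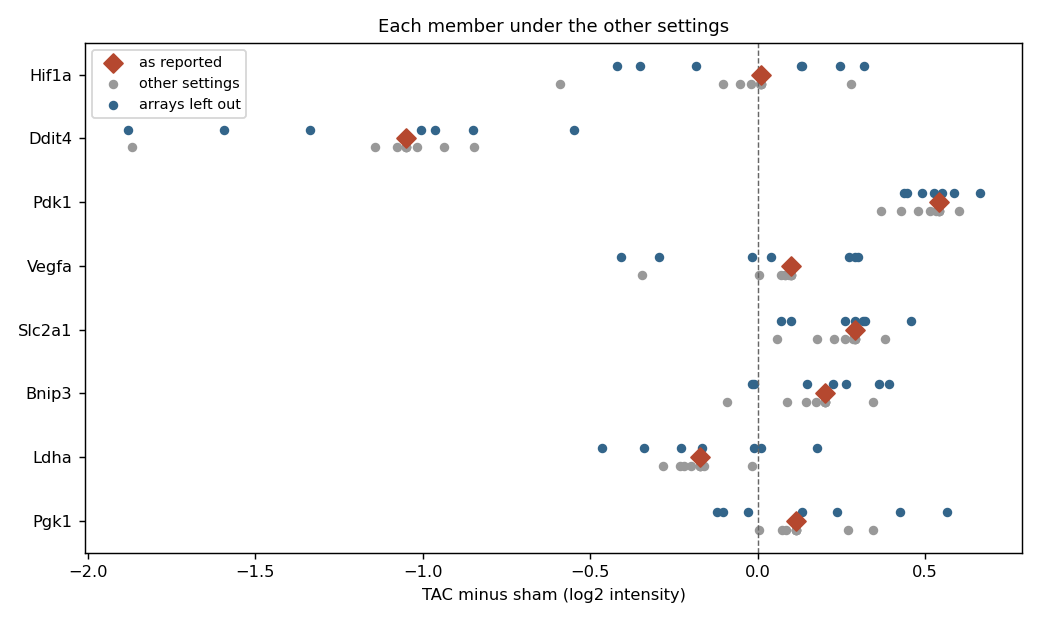
Difference of TAC minus sham in log2 intensity (horizontal axis) of each tested member at its main probe set: diamonds as reported, blue dots with 1 or 2 arrays left out, grey dots under other scalings, filters and models. Ddit4 stays below 0 (-1.88 to -0.55), Pdk1 (0.37 to 0.66) and Slc2a1 (0.06 to 0.46) stay above 0, and the other 5 genes fall on both sides.

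Under the 17 alternatives run for each gene's main probe set, Ddit4 remained below 0 and Pdk1 and Slc2a1 above 0, while Hif1a, Vegfa, Bnip3, Ldha and Pgk1 changed sign in at least 2 of them. With array weights, 3 member probe sets had a limma adjusted p under 0.05 and all 3 were lower after TAC: Ddit4 (-1.87, adjusted p = 0.00812), Slc2a1 1426600_at (-1.44, adjusted p = 0.0133) and Pgk1 1417864_at (-0.97, adjusted p = 0.0353). The same weights put 6698 of all 18188 probe sets past the threshold and gave TAC 3 a weight of 6.11 and sham 1 one of 0.143, so the TAC side rested mostly on 1 array.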

How the data were processed

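The deposited table holds 1 intensity per probe set and array, positive and on a linear scale. The submitters' processing notes name GCRMA, which corrects background and summarises probes; no version was found. Per the labels' protocols, 2 rounds of linear amplification preceded hybridisation, and where RNA is shortened this can lower probe sets far from the 3′ end. Values were transformed to log2 and not rescaled further between arrays. The options of GCRMA, and any scaling between arrays before deposit, are not stated. The 64 array controls were left out, and 18188 probe sets that reached log2 4 on 3 arrays or more were tested. The 2-sided test of TAC against sham used the moderated fit of limma 3.58.1 (R 4.3.3; 4 residual degrees of freedom), adjusted by Benjamini-Hochberg over all tested probe sets at a threshold of 0.05. The fit was also run on simulated data with independent noise at each probe set and array. Such data do not copy deviations that many probe sets share, so the run could not show how the fit handles them. The number of arrays limits the precision, and the median SE was 0.39.

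Genes were named from GEO's platform annotation. Where a gene had several tested probe sets, its brightest by mean log2 intensity represented it. The members, pathway lists and alternatives were chosen with earlier results of these data known. The text names every member probe set, 10 pathway genes whatever their values, and up to 6 more per direction with the smallest unadjusted p under 0.05, which gave 1 (Elob), and the 3 genes most like Hif1a over the arrays. Promoter windows came from RefSeq (GRCm38.p6), where all 10 members matched by symbol. Coordinates are given for these windows only.

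The replicate numbers were checked for pairing by correlating deviations from group means. Alternatives covered the filter, the scaling between arrays, array weights, RNA integrity and each array left out.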

Additional observations from a re-analysis of the deposited data

How the results depend on the processing

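In 16 of 17 alternatives 0 probe sets passed the limma adjusted p threshold of 0.05, as in the reported fit, and with array weights 6698 did. The number with an unadjusted p under 0.05 was 1263 as reported, 641 to 2429 with 1 array left out, 2110 with no filter, 3843 with the Gapdh covariate, 8749 with array weights and 2507 without TAC 1 and sham 1 together, an alternative chosen after seeing the data. The median of the members, 0.11 as reported, lay between -0.16 (array weights) and 0.28 (without sham 2), and was below 0 also without TAC 2 (-0.07) and without sham 1 (-0.02). With 1 array left out, Hif1a ranged from -0.42 to 0.32, Vegfa from -0.29 to 0.30, Bnip3 from -0.017 to 0.39, Ldha from -0.47 to 0.18 and Pgk1 from -0.12 to 0.57. Without TAC 1 and sham 1 together, Hif1a was -0.18, Vegfa -0.41 and Ldha 0.010. Hif1a was -0.019 with arrays centred on their median, -0.054 after quantile normalization and -0.10 after cyclic loess. With array weights Hif1a was -0.59, Vegfa -0.35 and Bnip3 -0.093. Pgk1 was -0.15 as the mean of its probe sets. The cause of these changes was not tested.

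Deviations of samples with the same number correlated at 0.76 for number 1, 0.78 for number 2 and -0.22 for number 3. TAC 2 also correlated at 0.71 with sham 3, and TAC 3 correlated best with sham 1 (0.20). Whether equal numbers mark a pairing cannot be told from these values, since RNA quality also differed between the arrays. With the replicate number as a block, 3005 probe sets had an unadjusted p under 0.05 and 0 an adjusted p under 0.05. The median of the members stayed at 0.11 with the block, and the smallest adjusted p of the members was 0.225. With 3 arrays a group, the SE of the members at their main probe sets, from 0.23 to 0.58, sets what could be detected.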
